A study of Mus musculus with 6 samples.

Results

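Ccl2, Ccl7, Ccl8 and Ccl12 encode the monocyte chemoattractant proteins of the mouse, small secreted CC chemokines that draw leukocytes out of the blood. They were taken as the rows of the deposited gene tables whose Ensembl identifiers carry these symbols in GENCODE M21, which gave 4 genes of the 35598 listed, and all 4 passed the low-count filter, with at least 3920 reads for each gene in each library. The cells were CNS-associated macrophages (CAMs), the macrophages of the brain's borders, sorted as CD3-CD11b+CD45+CD206+ cells from the brains of male C57BL/6 mice. The aged group (18 months) and the young group (2 months) held 3 libraries each. The labels give no genetic change and no treatment for either group. They do not tie libraries to individual mice, so each p-value reflects the scatter among these 6 libraries, part of which may be technical. The title sets the series in work on stroke in old mice; the question these libraries address is how sorted CAMs differ with age.

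Ccl2, Ccl7 and Ccl12 signal through Ccr2, the receptor by which classical monocytes leave the bone marrow and enter inflamed tissue. Mouse Ccl8 differs in that it activates Ccr8, a receptor of T cells, whereas human CCL8 binds several monocyte receptors. Border macrophages and microglia are known sources of these ligands, and their transcripts are induced by NF-kB and interferon signalling and broken down by mRNA decay factors of the Zfp36 family.

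The genes lie in tandem on the plus strand of mm10 chromosome 11, within 81229 bases. Ccl2 (ENSMUSG00000035385.5) spans chr11:82035571-82037453 and Ccl7 (ENSMUSG00000035373.2) chr11:82045712-82047525, with 8258 bases between them. Ccl12 (ENSMUSG00000035352.3) spans chr11:82101845-82103400 and Ccl8 (ENSMUSG00000009185.2) chr11:82115185-82116799, with 11784 bases between them. The gap of 54319 bases between Ccl7 and Ccl12 holds Ccl11, the eosinophil attractant eotaxin, which had 0 reads in all 6 libraries. Ccl2 overlaps the gene model Gm17268 on the opposite strand. The library kit does not mark strand, but Gm17268 was also listed at 0 in every library.

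The coding sequences around the adjacent pair of cysteine codons that gives CC chemokines their name are shown to compare the members, with those codons in capitals. Each stretch runs across the junction of exons 1 and 2 (plus strand, mm10, from the GENCODE M21 transcripts).
Ccl2: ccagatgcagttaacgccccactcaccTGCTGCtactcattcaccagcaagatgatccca
Ccl7: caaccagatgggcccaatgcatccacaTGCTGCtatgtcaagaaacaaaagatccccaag
Ccl12: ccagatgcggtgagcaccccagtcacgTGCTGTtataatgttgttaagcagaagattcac
Ccl8: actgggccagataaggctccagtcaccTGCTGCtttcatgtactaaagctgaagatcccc
Over the aligned bases the coding sequences were 64.2% (Ccl7 and Ccl8) to 70.5% (Ccl8 and Ccl12) identical. No run of 31 bases in the transcripts of the 4 genes occurred, on either strand, in a GENCODE M21 transcript of any other gene.

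The genes at the Ccl2 end of the cluster were lower in aged libraries, and those at the Ccl8 end were higher. Ccl2 and Ccl7 stood 3.79-fold and 2.92-fold lower, Ccl12 and Ccl8 1.47-fold and 2.38-fold higher, each without overlap between the groups. None of the 4 passed edgeR's quasi-likelihood test with Benjamini-Hochberg adjustment over the 10661 genes tested, at a threshold of 0.05. In that fit 0.00938% of genes were called, namely 1 gene. Groups that did not overlap were not rare: 14.7% of tested genes had none, 7.54% with every aged library higher and 7.19% with every aged library lower. Among the 2189 genes averaging 50 CPM or more these shares were 19.6%, 11.2% and 8.45%. In bulk RNA, fewer cells of a type and less RNA per cell cannot be told apart.

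**Figure D1:**
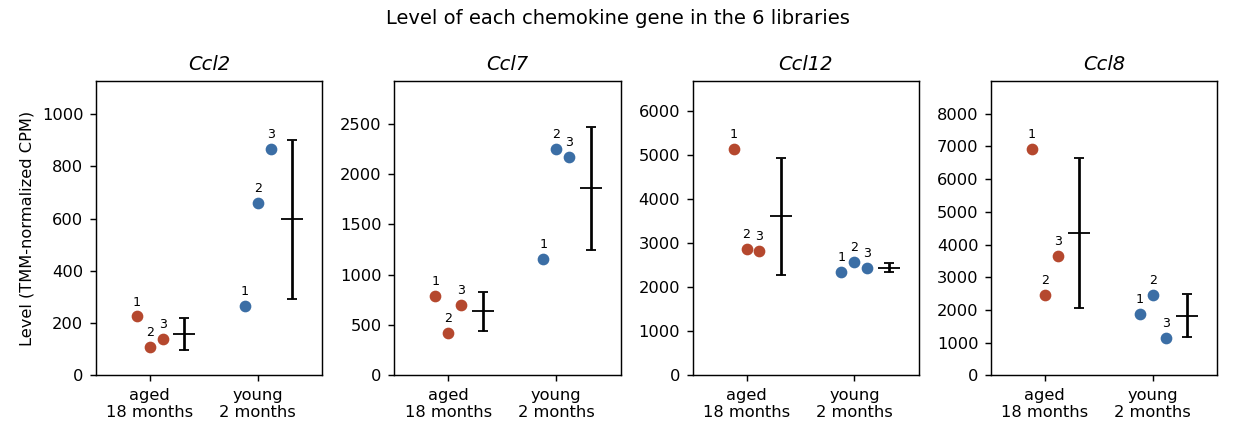
Level of each gene in TMM-normalized CPM (y axis, linear, from 0) in the 3 aged and 3 young libraries; each point is a library with its replicate number, and the bar is the mean ± SD. All aged points of Ccl2 and Ccl7 lie under all young points, whereas Ccl12 and Ccl8 were higher, with aged replicate 1 well above the rest.

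Ccl2, the main ligand of Ccr2, had 225, 109 and 139 CPM in aged libraries, against 266, 659 and 866 CPM in young libraries (CPM, counts scaled to library size with TMM factors). The young libraries were far apart, and young replicate 1 lay close to aged replicate 1, so the absence of overlap rested on a small gap. Means were 158 ± 60.5 CPM in aged and 597 ± 305 CPM in young libraries (SD, n = 3 each). The log2 fold change, aged over young, was -1.92 (SE 0.48, edgeR adjusted p = 0.546). Without young replicate 1 it was -2.27 (edgeR adjusted p = 0.725).

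Ccl7, a ligand of Ccr2 that also mobilizes monocytes from the marrow, had 789, 418 and 697 CPM in aged libraries, against 1153, 2248 and 2165 CPM in young libraries. Here too young replicate 1 was the lowest of its group, but it stood clear of every aged library. Ccl7 averaged 635 ± 193 CPM in aged and 1855 ± 609 CPM in young libraries (SD, n = 3 each), a log2 fold change of -1.55 (SE 0.37, edgeR adjusted p = 0.540).

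Ccl12, a Ccr2 ligand of the mouse, had 5142, 2864 and 2829 CPM in aged libraries, against 2349, 2568 and 2432 CPM in young libraries. The young libraries were nearly equal, with a coefficient of variation of 4.51%, against 36.7% in aged libraries, where replicate 1 was 1.82 times the lowest. Its mean was 3612 ± 1325 CPM in aged and 2449.8 ± 110.5 CPM in young libraries (SD, n = 3 each). The log2 fold change was 0.56 (SE 0.31, edgeR adjusted p = 0.932), and without aged replicate 1 it was 0.23 (adjusted p = 0.964).

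Ccl8 had 6919, 2470.0 and 3659 CPM in aged libraries, against 1867, 2456 and 1158 CPM in young libraries. Aged replicate 2 and young replicate 2 were nearly level, so the groups met at that point. The means were 4349 ± 2304 CPM in aged and 1827 ± 650.0 CPM in young libraries (SD, n = 3 each), with a log2 fold change of 1.25 (SE 0.43, edgeR adjusted p = 0.709). Leaving out aged replicate 1 gave 0.76 (edgeR adjusted p = 0.724).

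At an unadjusted p under 0.05, where the whole table held 3.63% of genes on the higher side and 2.04% on the lower side, Ccl8 lay on the higher side and Ccl2 and Ccl7 on the lower side. By p-value Ccl7 ranked 42, Ccl2 51, Ccl8 246 and Ccl12 1190 among the 10661 genes. An exact permutation test of each gene's levels, two-sided, gave p = 0.1 for all 4, which is the smallest value that 3 libraries against 3 can give. Over all genes tested the median log2 fold change was -0.02. Other fits did call Ccl2 and Ccl7 lower. The DESeq2 Wald test gave them adjusted p = 0.0136 and 0.0163, in a fit that called 0.417% of genes lower and 1.15% higher. With edgeR on genes averaging 50 CPM or more the adjusted p was 0.0203 for each (0.275% of genes called lower, 0.871% higher). With edgeR and no low-count filter it was 0.00112 and 0.00121 (0.0485% lower, 0.225% higher). Ccl8 was called higher in the fit without a filter (edgeR adjusted p = 0.00247), and Ccl12 in none of these. Over the 15 alternatives the adjusted p ran from 0.00112 to 0.914 for Ccl2, 0.00121 to 0.914 for Ccl7, 0.00247 to 0.930 for Ccl8 and 0.180 to 0.965 for Ccl12 (edgeR, DESeq2 or limma).

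**Figure D2:**
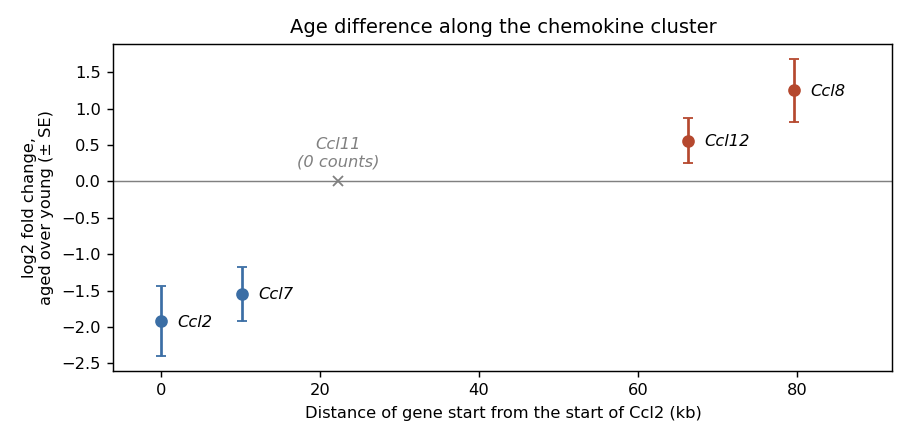
Log2 fold change, aged over young, with its SE (y axis) against the distance of each gene's start from that of Ccl2 (x axis, kb). Ccl2 and Ccl7 lie at -1.92 and -1.55, Ccl12 and Ccl8 at 0.56 and 1.25, and Ccl11 between them had 0 reads.

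Levels were compared between the genes in TPM, which takes the length of each transcript into account. Ccl8 had 10981, 6032 and 5801 TPM in aged libraries, against 2829.7, 3979 and 1836 TPM in young libraries. Ccl12 had 7535, 6580.0 and 4221 TPM in aged libraries, against 3256, 3817 and 3565 TPM in young libraries. These genes were thus the most abundant of the family in every library, and they exchanged places within both groups: Ccl8 led in aged replicates 1 and 3 and in young replicate 2, Ccl12 in the others.

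Ccl7 came next with 597, 506 and 547 TPM in aged libraries, against 805, 1675 and 1616 TPM in young libraries. Ccl2 was the least abundant in each, with 166, 128 and 105 TPM in aged libraries, against 181, 479 and 627 TPM in young libraries. In neither group did the TPM ranges of Ccl2, Ccl7 and Ccl12 overlap one another.

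Ranked by TPM among protein-coding genes, Ccl8 stood at 12, 23 and 16 in aged libraries, against 43, 32 and 72 in young libraries. Ccl12 ranked 19, 20 and 22 in aged and 35, 34 and 36 in young libraries. Ccl2 ranked 546, 798 and 848 in aged and 510, 266 and 227 in young libraries. Ccl8 and Ccl12 were therefore among the most abundant messages of the sorted cells at either age.

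The make-up of the family within a library does not depend on how libraries are scaled to each other. Ccl2 and Ccl7 together made up 3.96%, 4.79% and 6.11% of the summed TPM of the 4 genes in aged libraries, against 13.9%, 21.7% and 29.3% in young libraries. The highest aged share was under the lowest young one, which follows from the TPM of the 4 genes, since none overlapped between the groups. The shares averaged 4.95 ± 1.09% in aged and 21.6 ± 7.70% in young libraries (SD, n = 3 each). Ccl8 took 57.0%, 45.5% and 54.3% in aged libraries, against 40.0%, 40.0% and 24.0% in young libraries. The share of Ccl12 overlapped between the groups, at 42.8 ± 5.99% in aged and 43.7 ± 4.62% in young libraries.

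As a ratio of TPM values, Ccl8 was 66.3, 47.3 and 55.0 times Ccl2 in aged libraries, against 15.6, 8.30 and 2.93 times in young libraries. The ratio of Ccl7 to Ccl2 overlapped, at 4.25 ± 0.832 in aged and 3.51 ± 0.936 in young libraries (SD, n = 3 each). That of Ccl8 to Ccl12 overlapped as well, at 1.25 ± 0.291 in aged and 0.809 ± 0.269 in young libraries. Ratios within each pair of neighbours overlapped between the ages. The ratio of Ccl8 to Ccl2 could not, since in TPM Ccl8 was higher and Ccl2 lower in every aged library.

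**Figure D3:**
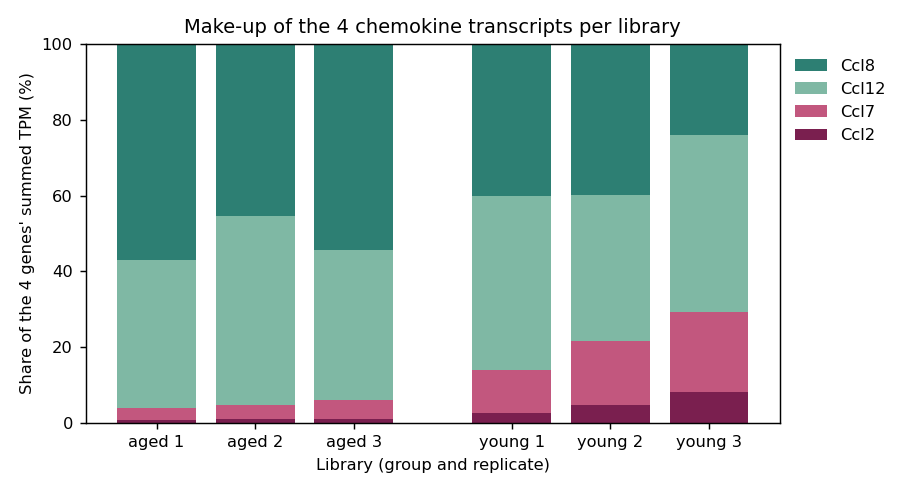
Share of each gene in the summed TPM of the 4 genes (y axis, %, bars stacked to 100) in each aged and young library. Ccl2 and Ccl7 together take 3.96% to 6.11% in aged libraries and 13.9% to 29.3% in young ones.

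The summed level of the 4 genes was 19278, 13246 and 10675 TPM in aged libraries, against 7071, 9949 and 7644 TPM in young libraries, without overlap. In TMM-normalized CPM the sums were 13076, 5862 and 7323 in aged and 5635, 7931 and 6622 in young libraries, and the groups overlapped. The 4 genes made up 92.3 ± 2.54% of the TPM of all CC chemokine genes listed in aged libraries and 88.2 ± 1.02% in young libraries.

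Of 17 other CC chemokine genes 8 passed the low-count filter, and 0 were called in either direction; their median log2 fold change was -0.53, against -0.02 over all genes tested. The groups did not overlap for 4 of them, 2 higher and 2 lower in aged libraries, against 14.7% of all genes tested (7.54% higher and 7.19% lower). Ccl6 and Ccl9, neighbouring chemokine genes elsewhere on chromosome 11 that act through Ccr1, had log2 fold changes of 1.56 (SE 0.35, edgeR adjusted p = 0.511) and 0.98 (SE 0.39, adjusted p = 0.797). Ccl24, an eosinophil attractant, and Ccl3, a ligand of Ccr1, were at -2.24 (SE 0.42, adjusted p = 0.378) and -1.02 (SE 0.54, adjusted p = 0.920).

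**Figure D4:**
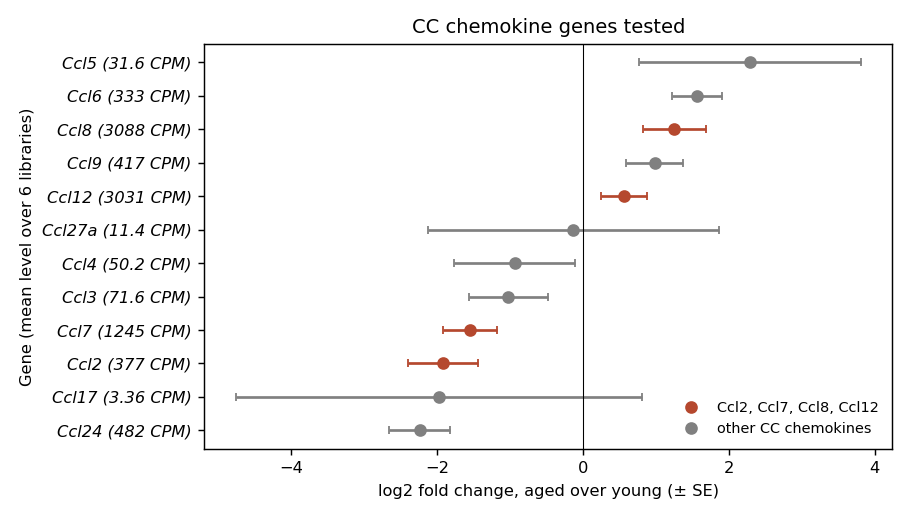
Log2 fold change, aged over young, with its SE (x axis) of the 12 CC chemokine genes tested, ordered by value, with the mean CPM over 6 libraries beside each name. The members lie on either side of 0. Ccl2 and Ccl7 are on the side of Ccl24 and Ccl3, and Ccl8 and Ccl12 on that of Ccl6 and Ccl9.

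Among receptor genes, Ccr1, Ccr2 and Ccrl2 passed the low-count filter and 0 of them were called. Ccr1, which binds Ccl7 and is carried by macrophages, was the most abundant of these, at 674, 523 and 541 CPM in aged libraries, against 303, 253 and 469 CPM in young libraries (log2 fold change 0.76, SE 0.33, edgeR adjusted p = 0.855).

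Ccr2 had 45.5, 11.8 and 58.5 CPM in aged libraries, against 30.9, 14.1 and 23.4 CPM in young libraries, with overlap. Its log2 fold change was 0.76 (SE 0.81). Ccrl2, a non-signalling receptor, had 0, 21.0 and 24.7 CPM in aged and 0.0961, 5.06 and 2.65 CPM in young libraries, with overlap. Ccr8, the receptor of mouse Ccl8, and the scavenger genes Ackr1 and Ackr2 did not exceed 0.285 CPM in any library, and Ccr3 did not exceed 1.53 CPM.

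Among 35 genes of inducing signals and transcription factors, 30 passed the filter and 0 were called (median log2 fold change 0.34). Ifngr1, a chain of the interferon gamma receptor, had 326, 812 and 651 CPM in aged libraries, against 149, 115 and 161 CPM in young libraries (log2 fold change 2.07, SE 0.39, edgeR adjusted p = 0.378). Cd14, a co-receptor for bacterial lipopolysaccharide, was also without overlap, with a log2 fold change of 1.33 (SE 0.38, adjusted p = 0.619), while the type I interferon receptor chain Ifnar2 lay at -0.00 (SE 0.29). The genes of the cytokines Ifng and Ifnb1 had 0 reads in every library.

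Among 18 genes of NF-kB inhibitors and mRNA decay factors 17 were tested and 0 called (median -0.01). The decay factor Zfp36l1 had 179, 95.1 and 85.2 CPM in aged libraries, against 197, 208 and 235 CPM in young libraries (log2 fold change -0.83, SE 0.39, edgeR adjusted p = 0.892). Its relative Zfp36l2 (-0.37, SE 0.36) and the NF-kB inhibitor Nfkbia (0.88, SE 0.52) overlapped between groups.

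Immediate-early and heat-shock genes, which cell isolation is known to induce together with chemokine transcripts, summed to 850.2 to 878 CPM in aged libraries, against 785 to 817 CPM in young libraries, for the 25 genes of the list. Of these 24 were tested, 0 were called, and the median log2 fold change was -0.03. The most abundant was the chaperone gene Hsp90aa1 (0.08, SE 0.36), and Ier5 (-0.98, SE 0.61) overlapped between groups. The transcription factor gene Klf6 had 86.1, 150.2 and 99.3 CPM in aged libraries, against 50.6, 50.6 and 51.3 CPM in young libraries (log2 fold change 1.14, SE 0.43, edgeR adjusted p = 0.775). The part of these genes' induction in the chemokine levels was not tested.

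The libraries held 30044365 to 32902652 counts in the aged group and 26605079 to 33306121 in the young group. Sort markers were present: Mrc1, which encodes CD206, was at 2345, 1182 and 1306 CPM in aged libraries, against 2770.4, 2940.2 and 2674 CPM in young libraries, and Itgam and Ptprc were detected in each library. The summed level of 20 CAM markers, led by Pf4, was 10229 to 18853 CPM in aged libraries, against 26739 to 30273 CPM in young libraries. Pf4 alone averaged 4772 CPM in aged and 12703 CPM in young libraries. Of the 20 markers 14 had log2 fold changes below 0, with a median of -0.17. Without overlap, 7 were lower and 1 was higher (Timd4, 0.98), while Cd163 (-0.02), Folr2 (-0.06) and Cbr2 (0.07) lay near 0. Over all genes tested, 7.19% were lower and 7.54% higher without overlap. The summed level of 16 microglia markers was 12760 to 20586 CPM in aged libraries, against 7715 to 9828 CPM in young libraries, 13 of 16 log2 fold changes being above 0. The part of CAM and microglia content in the chemokine levels was not tested.

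Relative to Mrc1, in TPM, Ccl8 was at 32.7, 26.9 and 26.7 in aged libraries, against 6.14, 8.30 and 3.96 in young libraries. Ccl12 was at 22.5, 29.3 and 19.4 in aged and 7.06, 7.96 and 7.70 in young libraries. Mrc1 itself was lower in every aged library (log2 fold change -0.79, SE 0.32). Dividing by it therefore widens the gap of genes higher in aged libraries and narrows that of genes lower there. Without this scaling the ratios of aged to young means for Ccl8 and Ccl12 were 2.64 and 1.72 in TPM, against 2.38 and 1.47 in CPM. Ccl2 was at 0.494, 0.568 and 0.485 in aged and 0.392, 0.999 and 1.35 in young libraries, and the groups overlapped. Ccl7 overlapped too, at 2.18 ± 0.373 in aged and 2.91 ± 1.01 in young libraries (SD, n = 3 each).

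Transcripts of mast, mural and fibroblast cells, which can also make these chemokines, were scarce, whereas those of neutrophils and red cells were not. Mast cell markers (9 genes) summed to at most 0.415 CPM in aged libraries, against at most 7.94 CPM in young libraries, mostly Hdc in the young ones, and Mcpt4, Mcpt2 and Ms4a2 were at 0 throughout. The 12 markers of mural cells and fibroblasts summed to 3.61 to 4.06 CPM in aged libraries, against 2.47 to 15.9 CPM in young libraries, and Pdgfrb and Kcnj8 were at 0 in every library. Endothelial markers (9 genes) summed to 15.4 to 29.8 CPM in aged libraries, against 20.6 to 36.2 CPM in young libraries. Astrocyte markers (8 genes) summed to 72.0 to 331 CPM in aged libraries, against 67.6 to 94.4 CPM in young libraries, with overlap. The 6 astrocyte genes tested had log2 fold changes above 0 (median 1.74), and 0 were called. Monocyte markers (12 genes) summed to 118 to 435 CPM in aged libraries, against 99.9 to 533 CPM in young libraries, with overlap. Neutrophil markers (14 genes) summed to 6.65 to 21635 CPM in aged libraries, against 12088 to 37887 CPM in young libraries. T and NK cell markers (12 genes) summed to 156 CPM in aged replicate 1, the library with the highest Ccl8 and Ccl12, against 0.318 to 29.8 CPM in the other libraries, most of it Cd3g (66.5 CPM) and Cd3d (59.4 CPM), although the sort was for CD3- cells. Among the aged libraries, replicate 1 also had the highest Mrc1 (2345 CPM) and CAM marker sum (18853 CPM), and the lowest microglia marker sum (12760 CPM). Without aged replicate 1 the log2 fold changes of Ccl8 and Ccl12 were 0.76 and 0.23. Dendritic cell markers (9 genes), led by Siglech, which microglia also express, summed to 2665 to 3038 CPM in aged libraries, against 1396 to 2527 CPM in young libraries. Cd209a and Bst2 made up most of the rest. Flt3, Zbtb46, Xcr1, Clec9a, Itgae and Ccr7 did not exceed 1.66 CPM in any aged library or 20.8 CPM in any young one. Aged replicate 3 held the low neutrophil value, and its 7 listed erythroid markers summed to 85.8 CPM, against 9075 to 30313 CPM in the other libraries. Choroid plexus markers reached 8178 CPM in aged replicate 3 and 11852 CPM in young replicate 3, against 569 to 1380.0 CPM elsewhere. The part of these cells in the chemokine levels was not tested. Without aged replicate 3 the log2 fold changes of Ccl2, Ccl7, Ccl8 and Ccl12 were -1.83, -1.61, 1.37 and 0.71.

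The genes whose levels ran most like those of each member were found by the root mean square difference of log2 CPM, each gene centred on its own mean over the 6 libraries, among 2188 other genes averaging 50 CPM or more. For Ccl2 these were Cd200r1, an inhibitory receptor of myeloid cells (0.28), Ccl7 (0.31) and Arhgef3 (0.35). Ccl2's own root mean square deviation was 1.09 on the same scale. Cd200r1 had 65.8, 34.3 and 30.4 CPM in aged libraries, against 74.4, 163 and 351 CPM in young libraries, and thus had the same low young replicate 1 as Ccl2.

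For Ccl7 the nearest were Smim26 (0.20), the sialyltransferase gene St6gal1 (0.28) and Smim1 (0.29), and Ccl2 stood at rank 4. For Ccl8 they were Rasgrp3, an activator of Ras (0.27), Med11, a Mediator subunit (0.28), and the complement gene C4b (0.28), whose reads are uncertain because of a near-identical copy. The distance between Ccl8 and Ccl12 was 0.50, which put Ccl12 at rank 29 for Ccl8 and Ccl8 at rank 449 for Ccl12.

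For Ccl12 the nearest were Ms4a6d, a membrane protein of myeloid cells (0.10), the transcription factor gene Runx1 (0.16) and the proteoglycan gene Srgn (0.16). Ccl12's own deviation was 0.38, smaller than its distance to Ccl8. Ms4a6d had 1748, 1128 and 946 CPM in aged libraries, against 736, 843 and 829 CPM in young libraries, which put the 6 libraries in the same order as Ccl12 did. All of these values come from the same 6 libraries and describe them only.

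RefSeq promoter windows (GRCm38.p6, plus strand, from 250 bases before to 50 bases after the start) matched Ccl12 and Ccl8, the pair that was higher in aged libraries. They are printed to set the letters of the neighbours side by side, with motif matches in capitals. Ccl2 and Ccl7 were not matched.
Ccl12 (chr11:82101595-82101894): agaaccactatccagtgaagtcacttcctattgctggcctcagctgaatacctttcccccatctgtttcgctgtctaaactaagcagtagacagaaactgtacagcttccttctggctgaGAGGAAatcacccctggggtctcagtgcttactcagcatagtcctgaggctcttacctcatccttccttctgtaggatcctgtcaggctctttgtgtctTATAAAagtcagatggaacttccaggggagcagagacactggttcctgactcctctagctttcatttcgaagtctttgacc
Ccl8 (chr11:82114935-82115234): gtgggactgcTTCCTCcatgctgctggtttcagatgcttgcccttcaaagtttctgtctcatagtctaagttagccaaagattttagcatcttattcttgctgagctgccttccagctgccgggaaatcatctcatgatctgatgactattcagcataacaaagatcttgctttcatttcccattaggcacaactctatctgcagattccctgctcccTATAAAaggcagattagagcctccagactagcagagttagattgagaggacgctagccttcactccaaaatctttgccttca
The windows were 62.3% identical over 281 aligned bases, and the identity of unrelated windows was not measured. TATAAA began 31 bases before the start in Ccl12 and 32 bases before it in Ccl8; 13.6% of the 32851 promoter windows hold it on either strand. GAGGAA, the core of PU.1 sites, was found in Ccl12 on the plus strand and in Ccl8 on the minus strand (TTCCTC), and 28.3% of windows hold it. GGGCGG (35.7%), TGANTCA (7.81%), TTCNNNGAA (8.30%), the interferon-stimulated response element core (3.44%) and the NF-kB consensus (8.46%) were searched on both strands without a match in either window. Such matches describe these letters only.

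**Figure D5:**
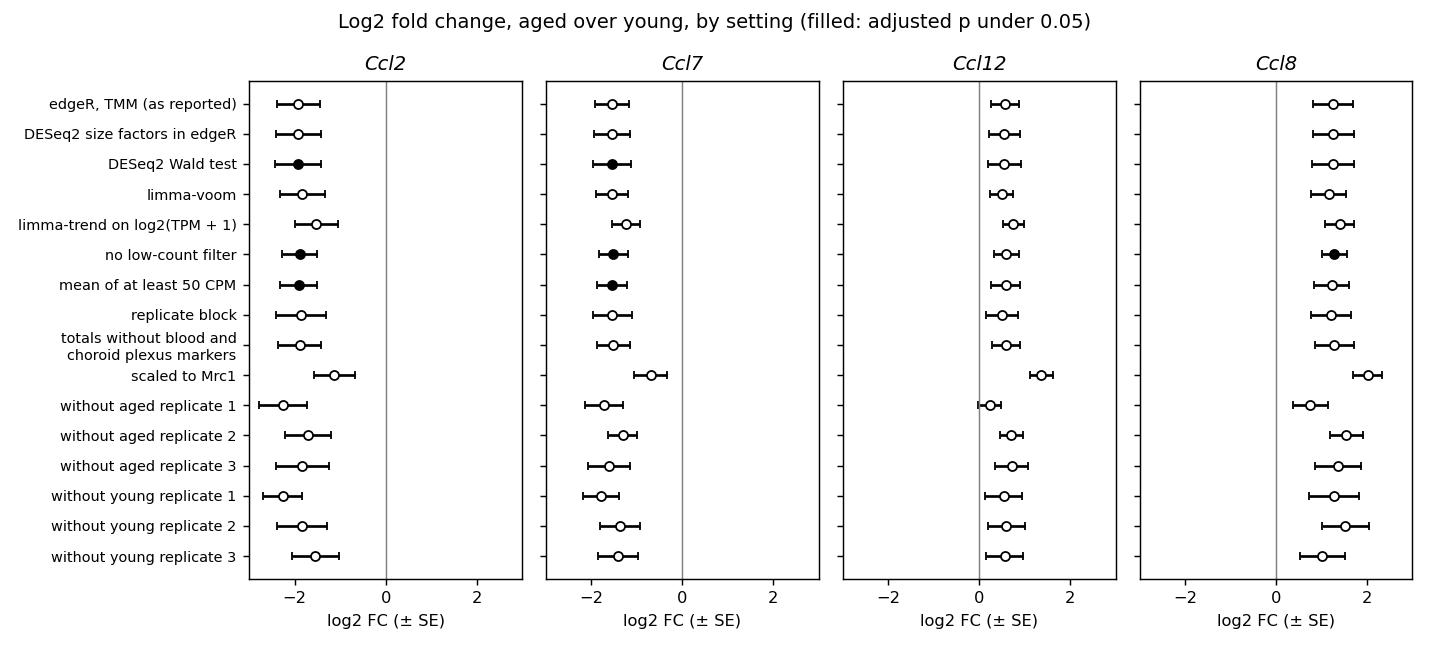
Log2 fold change, aged over young, with its SE (x axis) for each gene under the fit reported and 15 other settings (y axis); filled points have an adjusted p under 0.05. Ccl2 and Ccl7 stay below 0 and Ccl12 and Ccl8 above 0 in all of these settings, and the points of Ccl12 and Ccl8 without aged replicate 1 lie nearest to 0 for those genes.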

How the data were processed

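Sorted CAMs were profiled by RNA sequencing from PCR-amplified cDNA made with a kit that does not mark strand, per the labels' protocols. Per the submitters' processing notes, the tools were DRAGEN, fastp, FastQC, Picard and bcl2fastq 2.20, and the build mm10; which program counted reads, and on which annotation, is not given in the sources used here. The deposited tables hold for every gene an estimated count and a TPM, per the file headers. Of the 35598 identifiers 35513 matched GENCODE M21 without the version. Estimated counts were rounded, which changed a total by at most 8.9e-05%.

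The test on counts was run in R 4.3.3 with edgeR 4.0.16 (filterByExpr by group, TMM, robust quasi-likelihood F test, aged over young, no covariate), with Benjamini-Hochberg adjustment over 10661 genes. SE was obtained by dividing the size of the log2 fold change by the root of F. Alternatives used DESeq2 1.42.0, limma 3.58.1 and other filters and scalings. Scripts were tested on simulated data. Pattern distances used log2 CPM with a prior count of 2. Same-numbered libraries were checked for pairing by the correlation of their deviations from the group means.

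Members, gene lists and tests were chosen with earlier results of these data known. Genes named from a list are its 3 most abundant tested members and those averaging 50 CPM or more whose groups do not overlap; of the receptors, 1 is not reported here. Because no molecular identifiers were used, PCR copies were counted as reads.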

Additional observations from a re-analysis of the deposited data

How the results depend on the processing

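In all 15 alternatives Ccl2 (-2.27 to -1.13) and Ccl7 (-1.79 to -0.70) kept log2 fold changes below 0, and Ccl8 (0.76 to 2.01) and Ccl12 (0.23 to 1.37) above 0. Under DESeq2's Wald test Ccl2 (-1.92) and Ccl7 (-1.55) passed the threshold, and 113 genes were called higher and 41 lower, against 1 and 0 in the fit reported. Without a low-count filter Ccl2 (-1.89), Ccl7 (-1.52) and Ccl8 (1.28) passed, among 51 genes higher and 11 lower. On genes averaging 50 CPM or more Ccl2 (-1.91) and Ccl7 (-1.56) passed, among 19 higher and 6 lower. Limma-voom called 0 and 0 (559 higher and 377 lower at an unadjusted p under 0.05). When single libraries were left out, 0 to 2 genes were called higher and 0 to 1 lower; log2 fold changes then lay between -2.27 and -1.54 for Ccl2, -1.79 and -1.31 for Ccl7, 0.76 and 1.54 for Ccl8 and 0.23 and 0.71 for Ccl12. The causes were not tested.

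Same-numbered libraries deviated together at -0.01, 0.03 and 0.08 (correlation across genes), and differently numbered ones at -0.12 to 0.11. With 3 libraries a group, such correlations cannot decide whether the numbers pair libraries. Choroid plexus markers were highest in replicate 3 of both groups and neutrophil markers in replicate 1 of both. Erythroid markers were highest in aged replicate 1 and young replicate 3. With a replicate block the values were -1.87, -1.54, 1.20 and 0.50 for Ccl2, Ccl7, Ccl8 and Ccl12, and 1 gene was called higher and 0 lower. Other scalings moved the median of all genes, to 0.22 on log2(TPM + 1) and to 0.89 when libraries were scaled to Mrc1, an alternative chosen after seeing the data (Ccl2 -1.13, Ccl7 -0.70, Ccl8 2.01, Ccl12 1.37; 0 of the 4 called). The log2 ratio of the summed level of the 4 genes was 0.81 in TPM and 0.38 in CPM. Each of these genes had 3920 reads or more in each library, but PCR copies are among them, so the number of molecules is not known. Precision is also limited by 3 libraries a group.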
